A study of Rattus norvegicus with 25 samples.

Results

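Immediate early genes are described here in the basolateral amygdala (BLA) and the dorsal dentate gyrus (DG) of rats sampled 9 days after a single severe stressor. The genes were chosen by name, ignoring case, as Fos, Fosb, Junb, Egr1, Egr2, Egr3, Arc, Npas4, Nr4a1 and Dusp1, and 10 of 10 were found with 1 identifier each among the 26312 gene identifiers of the study. Immediate early genes are transcribed within minutes of synaptic activity or growth factor signaling, without new protein synthesis, through kinases that act on CREB and on serum response factor at their promoters. Their mRNAs are short-lived, so their level in a tissue tracks activity close to the time of collection, and in the amygdala and hippocampus they are widely used as marks of recently active neurons. Most encode transcription factors that switch on later genes, while others act at the synapse or shut the signaling off.

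The animals were adult male Sprague-Dawley rats, all wild type. Stress-exposed animals were immobilized for 3 h in the presence of a predator scent (fox urine), and control animals stayed in the home cage. Stress-exposed animals were then selected from either end of a composite score of anxiety-like behavior, as stress-low and stress-high, and control animals came from across the range of scores. Messenger RNA was sequenced from pooled left-hemisphere tissue punches of each animal, 1 library per animal and region, giving 13 BLA and 12 DG libraries from 14 animals. Stress-exposed animals spent the first nights after the stressor in a separate room. Because the tests of avoidance and startle preceded collection, every group had been through the same behavioral testing. In bulk tissue, fewer cells of a type and less RNA per cell cannot be told apart.

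For the BLA, libraries of 6 control, 3 stress-low and 3 stress-high animals were compared, and for the DG of 5, 3 and 3. The BLA library of control animal 2 and the DG library of control animal 35 stood far from the rest, so they were kept apart and their values are given separately. On the first principal component of log2(TPM + 1) the BLA library of animal 2 was at 46.4, with the other BLA libraries from -17.3 to 12.5, and the DG library of animal 35 was at 56.0, with the others from -13.7 to 2.28. Library totals ran from 12709493 to 22801247 expected counts in the BLA and from 11656439 to 19477932 in the DG. The labels disagree on BLA animal 35, which its library name calls a control and its treatment field calls immobilized, and it was taken as a control. The 7 dentate granule cell markers fitted the tissue labels as a sum. It was 494 to 781 TPM in DG controls and 118 to 171 TPM in BLA controls. Prox1, the transcription factor of these cells, averaged 75.6 TPM in DG libraries and 2.52 TPM in BLA libraries. C1ql2 averaged 344 and 2.78 TPM. Calb1 (106 and 134 TPM) and Lct (0.0136 and 0.0275 TPM) of the same list went the other way. The regions were processed differently, so this is a check of the labels only. The 3 stress-high animals carry numbers up to 20 and the 4 stress-low animals numbers above 20, so the animal number and the behavioral outcome cannot be told apart among the stress-exposed animals.

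Promoters are shown for Nr4a1 and Dusp1, the pair whose levels followed each other most closely in the BLA, and for Egr2, which pairs with Nr4a1 in the DG. They are the 250 bases before the RefSeq start of transcription on assembly GRCr8, written 5′ to 3′ on the gene's strand, and capitals mark TGACG on either strand, the core of the CREB-binding site known as the cAMP response element, and the CArG box, the site of serum response factor. A promoter was matched by symbol for 7 of the 10 genes.
Nr4a1, chr7:134259888-134260137, + strand: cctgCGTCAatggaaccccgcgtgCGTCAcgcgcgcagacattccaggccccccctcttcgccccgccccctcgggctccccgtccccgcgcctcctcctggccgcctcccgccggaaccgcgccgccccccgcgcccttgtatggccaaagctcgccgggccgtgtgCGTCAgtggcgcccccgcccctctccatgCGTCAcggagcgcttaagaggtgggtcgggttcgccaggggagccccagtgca
Dusp1, chr10:17184603-17184852, + strand: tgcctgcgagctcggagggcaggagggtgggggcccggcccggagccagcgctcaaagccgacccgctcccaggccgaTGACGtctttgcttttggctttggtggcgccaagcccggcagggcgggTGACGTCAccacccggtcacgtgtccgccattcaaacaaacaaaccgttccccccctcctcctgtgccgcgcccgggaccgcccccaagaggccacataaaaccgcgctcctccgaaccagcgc
Egr2, chr20:21054442-21054691, - strand: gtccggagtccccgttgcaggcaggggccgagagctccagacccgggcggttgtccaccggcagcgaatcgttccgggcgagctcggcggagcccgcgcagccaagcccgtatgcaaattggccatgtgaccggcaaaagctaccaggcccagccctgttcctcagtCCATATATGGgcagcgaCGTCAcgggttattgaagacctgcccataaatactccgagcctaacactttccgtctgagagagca

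TGACG matched 4 times in the Nr4a1 window, 3 times in that of Dusp1 and 1 time in that of Egr2. The Dusp1 window holds the full palindrome TGACGTCA, which counts as a TGACG match on each strand. No other of the 7 windows held it, and it stood in 1.7% of 27457 rat promoters. TGACG was present in 5 of the 7 windows (Nr4a1, Dusp1, Egr1, Junb and Egr2) and in 19% of all promoters of the same length. A CArG box was present in 2 of the 7 (Egr1 and Egr2) and in 1.5% of all promoters. These matches are letters in a window and not measured binding.

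TPM values are scaled for gene length and library size, so the genes of 1 region can be ordered by them. In the BLA, Egr1, the zinc finger factor often used to map active neurons, had the highest mean at 49.3 TPM and was above Egr3 in 12 of 12 libraries. Egr3 (34.3 TPM) and Junb (31.8 TPM) changed places from library to library, Egr3 being higher in 7 of 12. Nr4a1 (23.9 TPM), Arc (17.6 TPM) and Dusp1 (13.9 TPM) came next, and a group of low genes followed with Fos at 4.53 TPM, Fosb at 3.3 TPM, Npas4 at 2.96 TPM and Egr2 at 1.26 TPM. Fosb was above Npas4 in 7 of 12 libraries, so that pair also was not ordered beyond its spread.

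The leading DG gene was Egr3 at 72.0 TPM, above Egr1 (50.7 TPM) in 11 of 11 libraries. Junb (37.6 TPM), Arc (31.2 TPM), Nr4a1 (13.2 TPM) and Dusp1 (7.8 TPM) followed, each above the next in at least 10 of 11 libraries. Fos (5.32 TPM), Fosb (3.18 TPM) and Npas4 (2.3 TPM) were low, and Fosb was above Npas4 in 8 of 11. Egr2 was nearly silent at 0.45 TPM, resting on 2 to 26 expected counts per library. The difference between transcript length and effective length was 50 bases in every BLA library and 261 to 274 in the DG libraries. The regions were thus processed differently, and levels of the 10 genes were not compared between them.

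The genes differed in how much they varied from animal to animal. Egr1 was the steadiest in the BLA, with an SD of 11.3% of its mean over the 12 libraries, and Npas4 and Egr2 varied most at 37.6% and 35.7%. In the DG the SD was 9.65% of the mean for Egr3, 9.72% for Egr1 and 9.91% for Junb, against 54.8% for Npas4, 52.8% for Egr2 and 35.3% for Fos. Npas4, a factor induced by calcium entry at active synapses, spanned 1.43 to 5.58 TPM in the BLA and 0.65 to 5.1 TPM in the DG.

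**Figure D1:**
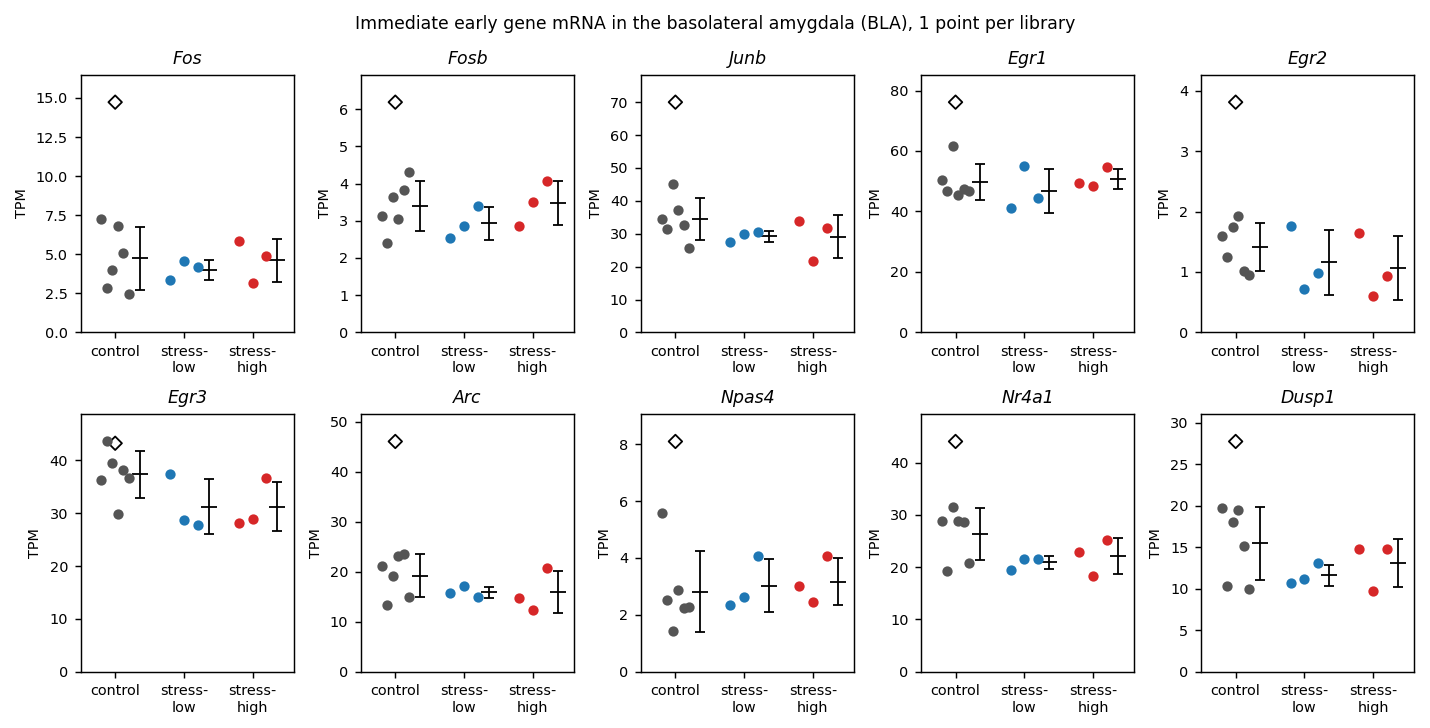
TPM of each gene in the BLA by group, 1 point per library, with the mean and SD as a bar to the right; the vertical axes start at 0 and the open diamond is the library of animal 2, kept apart from the mean. The diamond lies above every other library for 9 of the 10 genes, and the 3 groups overlap for every gene.

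In the BLA, most of these genes were lower in stress-exposed than in control animals, by amounts that did not pass correction over all genes. Of the 10 genes, 9 had a negative fitted log2 fold change for stress-exposed over control, with a median of -0.26, while the median over all 15230 genes tested was -0.004. Some of these genes were correlated across the same libraries, as given below, so the 9 are not separate observations. The number called at an adjusted p under 0.05 was 0 of 10, and 0.00% of all genes were called (edgeR quasi-likelihood test, Benjamini-Hochberg adjustment). DESeq2 and limma also called 0 of 10. At an unadjusted p under 0.05, 3 of 10 were lower and 0 higher, where 1.77% of all genes were lower and 1.27% higher. Those 3 were Egr3, Nr4a1 and Arc.

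Markers of other cells were fitted in the same comparison, and their part in the values of the 10 genes was not tested. The fitted fold change was above 0 for 5 of 5 oligodendrocyte markers (median log2 0.16), whose summed TPM was 2190 to 3020 in controls, 2570 to 4020 in stress-low and 2650 to 3100 in stress-high animals. It was above 0 for 4 of 4 blood markers (median 0.19), with sums of 371 to 661, 515 to 597 and 544 to 674 TPM, and for 6 of 7 striatal and central amygdala markers (median 0.22), with sums of 277 to 880, 267 to 854 and 382 to 479 TPM. It was below 0 for 5 of 5 endothelial and mural markers (median -0.05) and 5 of 5 tested dentate granule cell markers (median -0.11). Of these and the other 5 marker lists, 2 genes were under an unadjusted p of 0.05 by edgeR, Gad2 of GABA neurons at 0.34 (unadjusted p = 0.0314) and the hemoglobin gene Hbb at 0.31 (unadjusted p = 0.026), and 0 passed adjustment.

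Egr3, a zinc finger factor of the EGR family, had control values from 29.92 to 43.57 TPM with a median of 37.4. The stress-low values were 27.83, 28.62 and 37.33 TPM, and the stress-high values were 28.15, 28.95 and 36.65 TPM. In each stress group 2 animals lay below every control and 1 lay among the controls, so the groups overlapped. The mean was 37.3 ± 4.50 TPM in controls (SD, n = 6) and 31.3 TPM in the 6 stress-exposed animals, and the fitted log2 fold change was -0.28 with an SE of 0.09 (edgeR, unadjusted p = 0.00763, adjusted p = 1.0). An exact two-sided permutation test of the difference in mean TPM gave p = 0.0303, and this was the only 1 of 80 such tests, 10 genes in 8 comparisons, below 0.05. Leaving out control animal 14, 27 or 32 or stress-exposed animal 7, 19, 30 or 34 from the BLA left 0 of the 80 exact permutation tests below 0.05, that of Egr3 included. The smallest exact permutation p was then 0.0519 in each case, that of Junb in the DG for stress-exposed over control.

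Nr4a1, an orphan nuclear receptor, had control values from 19.34 to 31.53 TPM with a median of 28.7. The stress-low animals gave 19.53, 21.53 and 21.61 TPM and the stress-high animals 18.39, 22.84 and 25.27 TPM. Every stress-exposed animal was below the median control, but control animals 17 (19.34 TPM) and 35 (20.84 TPM) lay among them. The log2 fold change was -0.31 with an SE of 0.11 (edgeR, unadjusted p = 0.0145, adjusted p = 1.0), and the exact permutation p was 0.0649.

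Arc, which encodes a synaptic protein that regulates AMPA receptor trafficking, ranged from 13.41 to 23.58 TPM in controls with a median of 20.2. The stress-low values were 14.93, 15.72 and 17.12 TPM, and the stress-high values were 12.35, 14.78 and 20.71 TPM. The controls fell into 4 animals from 19.24 to 23.58 TPM and 2 animals, 17 and 35, at 13.41 and 14.86 TPM, within the range of the stress-exposed animals. The log2 fold change was -0.30 with an SE of 0.14 (edgeR, unadjusted p = 0.0437, adjusted p = 1.0), and the exact permutation p was 0.145. Without the conflicting library of animal 35, 5 of 10 genes were under an unadjusted p of 0.05 in this comparison, and with limma on log2(TPM + 1) it was 1 of 10. For refits without 1 library or with DESeq2 or limma, here and below, the share over all genes is not given. Their unadjusted counts therefore have no background.

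The other BLA genes gave smaller or noisier differences. Dusp1, a phosphatase that inactivates MAP kinases, had a mean of 15.5 ± 4.44 TPM in 6 controls, 11.6 ± 1.29 in 3 stress-low and 13.1 ± 2.92 in 3 stress-high animals. Junb, an AP-1 subunit that often restrains the others, had means of 34.5 ± 6.51, 29.2 ± 1.68 and 29.1 ± 6.50 TPM in the same order. Egr1 did not separate the groups, with means of 49.7 ± 6.09, 46.8 ± 7.33 and 50.8 ± 3.32 TPM. Fos, the AP-1 subunit most used as an activity marker, had 4.74 ± 2.01, 4.02 ± 0.637 and 4.62 ± 1.37 TPM, and the related subunit Fosb 3.39 ± 0.668, 2.93 ± 0.441 and 3.48 ± 0.601 TPM. Egr2 had 1.41 ± 0.399, 1.16 ± 0.540 and 1.06 ± 0.533 TPM. Npas4 had 2.82 ± 1.43, 3.03 ± 0.923 and 3.17 ± 0.828 TPM, and was the 1 gene with a fitted fold change above 0 for all stress-exposed animals pooled.

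Stress-low and stress-high animals were each set against the same controls, so these comparisons share samples. For stress-low over control in the BLA the median log2 fold change of the genes was -0.29, 0 of 10 passed the adjusted threshold (0.00% of all genes) and 2 of 10 were lower at an unadjusted p under 0.05 (1.6% of all genes). These were Nr4a1 at -0.37 with an SE of 0.14 (edgeR, unadjusted p = 0.017) and Egr3 at -0.30 with an SE of 0.11 (edgeR, unadjusted p = 0.0178). The count was 5 without control animal 35, whose labels conflict, 4 without control animal 17, 1 without stress-low animal 22 or 30, and 0 with limma. For stress-high over control the median was -0.23, 0 of 10 passed (0.00%) and 1 of 10, Egr3 at -0.26 with an SE of 0.11 (edgeR, unadjusted p = 0.0339), was lower at the unadjusted level (1.42% of all genes). Without stress-high animal 19 this median was -0.07 and the count 0, and without stress-high animal 7 or 20 or control animal 17 the count was 2. With limma it was 0, and without control animal 28 the median was -0.15.

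Between stress-high and stress-low animals, the comparison that asks about behavioral outcome after the same stressor, the BLA values did not separate. The fitted log2 fold change was above 0 for 10 of 10 genes, but the median was 0.11 and the SEs ran from 0.09 to 0.42. At an adjusted p under 0.05, 0 of 10 were called (0.00% of all genes), and at an unadjusted p under 0.05 it was 0 of 10 in either direction (0.998% of all genes higher, 0.985% lower). Egr1 had the smallest p, at a log2 fold change of 0.16 with an SE of 0.09 (edgeR, unadjusted p = 0.108). The values of the 3 and 3 animals overlapped for 10 of 10 genes, and 6.11% of the 15605 genes with a mean of at least 0.5 TPM did not overlap. With 3 animals against 3, the smallest exact permutation p is 0.1.

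**Figure D2:**
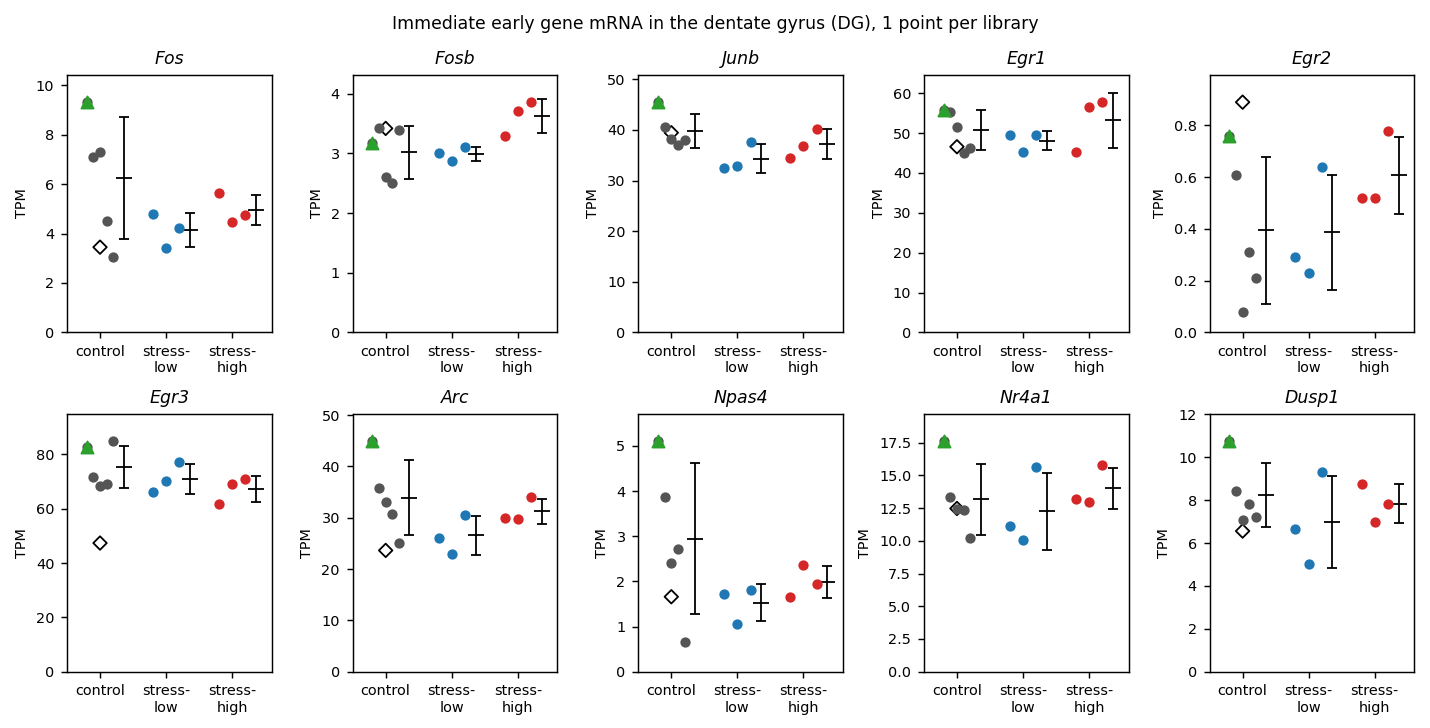
TPM of each gene in the DG by group, 1 point per library, with the mean and SD as a bar to the right; the vertical axes start at 0, the open diamond is the library of animal 35, kept apart from the mean, and the green triangle is control animal 2. Animal 2 is the highest of the 11 compared libraries for 6 of the 10 genes, and Fosb is the gene whose stress-high and stress-low points do not overlap.

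For stress-exposed over control in the DG, the median log2 fold change was -0.13, with 6 of 10 genes below 0, and the median over all 14080 genes tested was -0.003. None of the 10 was called at an adjusted p under 0.05 (0.00% of all genes) by edgeR, DESeq2 or limma. Egr2, at 0.45 TPM, was under the 0.5 TPM threshold of limma and entered it only in a fit of all genes. By edgeR 0 of 10 were under an unadjusted p of 0.05, where 2.3% of all genes were higher and 2.12% lower. DESeq2 put 1 of 10 under the unadjusted level. Junb had the smallest exact permutation p, 0.0519, at a log2 fold change of -0.15 with an SE of 0.08 (edgeR, unadjusted p = 0.0707). The smallest edgeR p belonged to Npas4, with control values of 0.65, 2.40, 2.72, 3.87 and 5.10 TPM. The 6 stress-exposed animals lay between 1.05 and 2.37 TPM, inside the control range and below 4 of the 5 controls. The log2 fold change of Npas4 was -0.74 with an SE of 0.36 (edgeR, unadjusted p = 0.0605, adjusted p = 0.931), and the exact permutation p was 0.134. Single control libraries moved this value. Without control animal 32, which had the lowest Npas4, it was -1.0 (edgeR, unadjusted p = 0.000985) and 3 of 10 genes were under the unadjusted level, and without control animal 2, which had the highest, it was -0.48 (edgeR, unadjusted p = 0.207) and the median over the 10 genes was -0.06. The median was -0.08 without stress-low animal 33, and the count was 1 without control animal 17 or 28 or stress-low animal 34.

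For stress-low over control in the DG, all 10 fitted log2 fold changes were at or below 0, with a median of -0.15, 0 of 10 passed the adjusted threshold (0.00% of all genes) and 2 of 10 were lower at an unadjusted p under 0.05 (3.03% of all genes). Junb read 37.11, 38.08, 38.15, 40.49 and 45.49 TPM in controls and 32.49, 32.78 and 37.68 TPM in stress-low animals, so 2 of the 3 lay below every control. Its log2 fold change was -0.21 with an SE of 0.09 (edgeR, unadjusted p = 0.0393, adjusted p = 0.718), and the exact permutation p was 0.0714. Arc read 25.13, 30.80, 33.13, 35.74 and 44.86 TPM in controls and 22.95, 26.14 and 30.53 TPM in stress-low animals, with 1 below every control. The log2 fold change of Arc was -0.34 with an SE of 0.15 (edgeR, unadjusted p = 0.0398, adjusted p = 0.718), and the exact permutation p was 0.161.

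These DG values depended on single libraries. The count under an unadjusted p of 0.05 went from 2 to 0 without control animal 2, control animal 14, stress-low animal 22 or stress-low animal 33, and to 4 without control animal 32. With the animal number above 20 as a covariate it was 0, and the log2 fold changes were -0.05 for Arc and -0.11 for Junb. That covariate rests on the controls alone, animals 2, 14 and 17 against 28 and 32, since neither stress group holds numbers on both sides of 20. It therefore cannot separate animal number from group. For stress-high over control the median log2 fold change was -0.07, 0 of 10 passed (0.00%), and 0 of 10 were under the unadjusted level (2.19% of all genes). Fosb had the smallest p there, at 0.28 with an SE of 0.14 (edgeR, unadjusted p = 0.0666).

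Fosb also gave the smallest p between stress-high and stress-low animals in the DG. Its product, in a truncated and long-lived form, builds up in neurons with repeated activity, and isoforms were not separated here. Stress-high animals gave 3.30, 3.72 and 3.86 TPM and stress-low animals 2.88, 3.00 and 3.11 TPM, with controls from 2.50 to 3.42 TPM with a median of 3.18. The stress-high and stress-low values did not overlap, as for 1 of the 10 genes and for 8.57% of the 14493 genes with a mean of at least 0.5 TPM. The log2 fold change was 0.28 with an SE of 0.16 (edgeR, unadjusted p = 0.0994, adjusted p = 1.0), and the exact permutation p was 0.1, the smallest this design allows. Over the 10 genes the median was 0.22, 0 of 10 passed the adjusted threshold (0.00%) and 0 of 10 the unadjusted one in either direction (1.73% of all genes higher, 1.4% lower). The median turned to -0.15 with the animal number above 20 as a covariate. As that covariate rests on the controls alone, animal 2 among them, this value cannot separate animal number from behavioral outcome.

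The remaining DG genes overlapped between all groups. Fos had means of 6.25 ± 2.48 TPM in 5 controls, 4.14 ± 0.689 in 3 stress-low and 4.95 ± 0.609 in 3 stress-high animals, Dusp1 8.26 ± 1.49, 6.99 ± 2.16 and 7.84 ± 0.89 TPM, and Nr4a1 13.2 ± 2.71, 12.3 ± 2.95 and 14.0 ± 1.55 TPM. Egr1 had 50.8 ± 4.93, 48.1 ± 2.41 and 53.2 ± 6.87 TPM in the same order. Egr3 differed from the rest in that stress-high animals had the lowest mean, at 67.2 ± 4.92 TPM against 71.1 ± 5.51 in stress-low animals and 75.3 ± 7.85 in controls. Egr2 had 0.394 ± 0.283, 0.387 ± 0.221 and 0.607 ± 0.150 TPM.

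**Figure D3:**
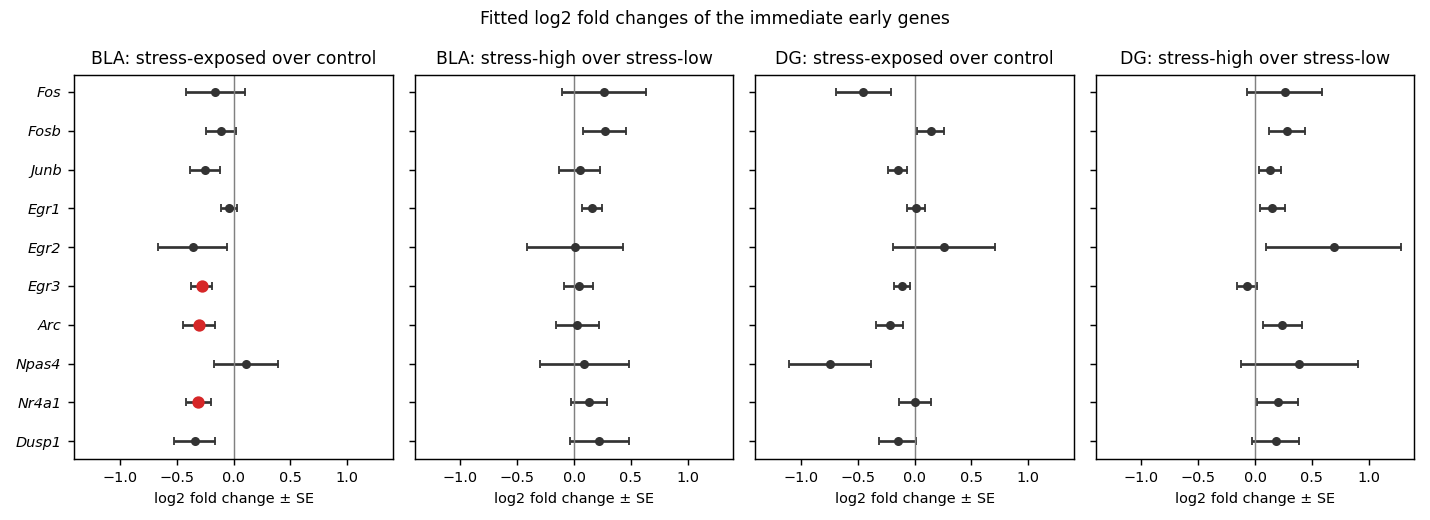
Fitted log2 fold change of each gene with its SE, for stress-exposed over control and stress-high over stress-low in each region; red points have an unadjusted p under 0.05. Red points appear only for Egr3, Arc and Nr4a1 in the BLA, stress-exposed over control, and no point passed the adjusted threshold.

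The difference of the fold changes between the regions (DG minus BLA) was tested directly. For stress-exposed over control, stress-low over control, stress-high over control and stress-high over stress-low, 0 of 10 genes passed an adjusted p of 0.05 in each (0.00% of 15453 genes), and the same held with DESeq2. This fit took the libraries as independent, although most animals gave a library in each region. Its smallest unadjusted p was that of Npas4 for stress-exposed over control, with a difference of -0.85 on the log2 scale and an SE of 0.49 (edgeR, unadjusted p = 0.0966). With the animal as a block, in the 9 animals compared in both regions, 2 of 10 genes had a higher fold change in the DG at an unadjusted p under 0.05 for stress-exposed over control (1.17% of all genes). These were Nr4a1 at 0.50 with an SE of 0.15 (edgeR, unadjusted p = 0.00425, adjusted p = 1.0) and Dusp1 at 0.43 with an SE of 0.16 (edgeR, unadjusted p = 0.0185, adjusted p = 1.0), while Npas4 was at -0.20 with an SE of 0.33 (edgeR, unadjusted p = 0.549). Of the stress-low animals, this fit held only animals 22 and 34. None of the 10 genes passed adjustment, so the fold changes were not shown to differ between the BLA and the DG.

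Across animals, some of the genes rose and fell together. Pearson r was computed on log2(TPM + 1) for the 45 pairs in each region, with 100000 permutations and Benjamini-Hochberg adjustment over the 45. In the BLA 6 of 45 pairs passed an adjusted p of 0.05, and r was above 0 for 35 of 45 with a median of 0.274. Pairs of other genes were not counted in either region, so the pair counts have no background and are not a trait shown for these genes. The 6 pairs joined Nr4a1, Dusp1, Junb, Arc and Fos. Nr4a1 and Dusp1, whose promoter windows are printed above, had an r of 0.930 (permutation p = 4e-05, adjusted p = 0.0018, n = 12) and a Spearman rho of 0.944 (permutation p = 2e-05, adjusted p = 0.0009, n = 12), and r was 0.912 without the 2 libraries farthest from the median of Nr4a1. Next came Arc and Nr4a1 at 0.885, Fos and Dusp1 at 0.851, Junb and Nr4a1 at 0.833, Junb and Dusp1 at 0.822 and Arc and Dusp1 at 0.803.

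Fosb, Egr1, Egr2, Egr3 and Npas4 were in none of the 6 BLA pairs. The median r of a gene with the other 9 was 0.612 for Dusp1, 0.557 for Junb, 0.536 for Fos, 0.488 for Nr4a1 and 0.358 for Arc. It was also 0.358 for Egr2 and 0.27 for Egr1, and it was 0.035 for Fosb, 0.095 for Egr3 and -0.027 for Npas4. Fosb and Egr2 had an r of -0.397, the lowest of the 45 pairs. On deviations from the group means, which remove differences between the groups, 8 of 45 pairs passed. Leaving out each library in turn gave 5 to 8 pairs. With the library of animal 2 included, 24 of 45 pairs passed and the median r was 0.657.

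**Figure D4:**
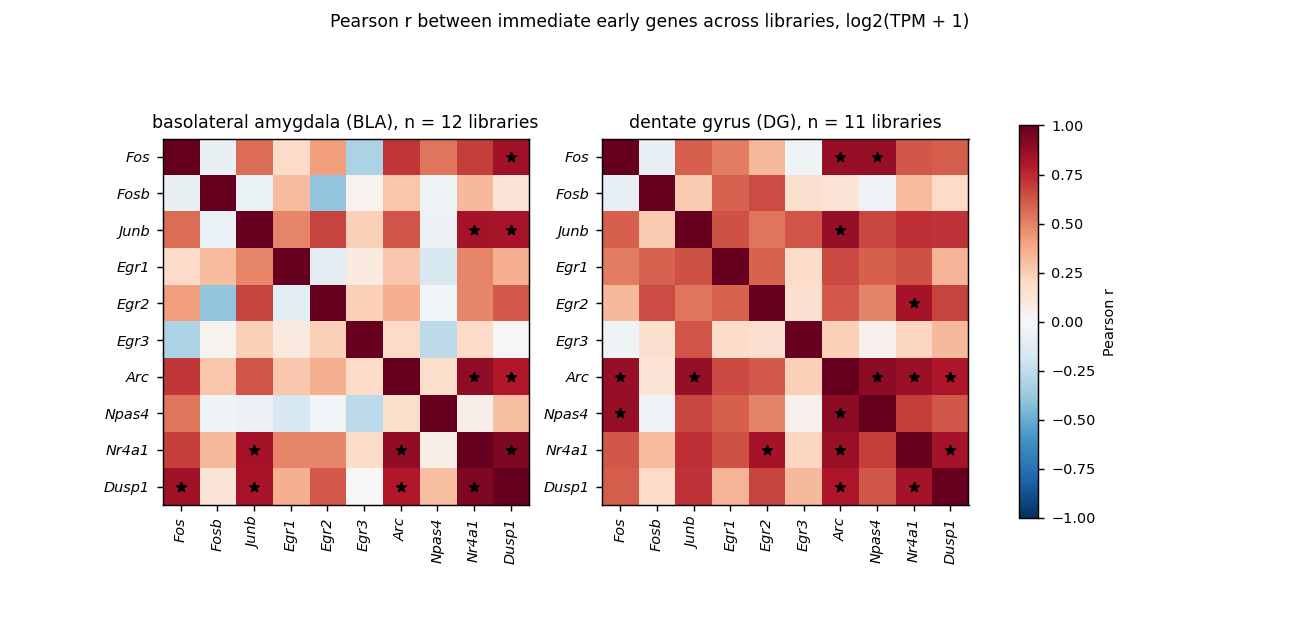
Pearson r between the genes across the libraries of each region, computed on log2(TPM + 1); stars mark pairs with a permutation p under 0.05 after adjustment over the 45 pairs of the region. Stars join Nr4a1, Dusp1, Junb, Arc and Fos in the BLA (6 pairs) and gather around Arc in the DG (5 of 8 pairs).

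In the DG 8 of 45 pairs passed, with a median r of 0.601 and 42 of 45 above 0. Arc was in 5 of the 8, with an r of 0.892 with Npas4 (permutation p = 0.00027, adjusted p = 0.00697, n = 11), 0.870 with Fos, 0.870 with Junb, 0.863 with Nr4a1 and 0.809 with Dusp1. The others were Fos with Npas4 at 0.870, Egr2 with Nr4a1 at 0.831 and Nr4a1 with Dusp1 at 0.831. By Spearman rho, Arc and Npas4 had 0.864 (permutation p = 0.00105, adjusted p = 0.0236, n = 11), and r was 0.797 without the 2 libraries farthest from the median of Arc. The pairs that passed in both regions numbered 3, which is 50% of the BLA pairs and 37.5% of the DG pairs. They were Arc with Nr4a1, Arc with Dusp1 and Nr4a1 with Dusp1. Fosb, Egr1 and Egr3 were in none of the 8, and the median r with the other 9 genes was 0.195 for Fosb and 0.181 for Egr3 but 0.593 for Egr1, the same as for Egr2.

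The DG count rested on control animal 2. Without that library 0 of 45 pairs passed and the median r was 0.417, with 9 pairs at an unadjusted permutation p under 0.05, while leaving out any other DG library gave 7 to 11 pairs. By Spearman rho 5 pairs passed, and on deviations from the group means 14 did.

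Animal 2 had high levels of these genes in both regions. In the BLA its library gave 14.73 TPM of Fos, where the 6 other controls ran from 2.47 to 7.27, and 46.07 TPM of Arc, where they ran from 13.41 to 23.58. Junb was 70.02 TPM, Egr1 76.15, Nr4a1 44.04, Dusp1 27.76, Npas4 8.10, Fosb 6.19 and Egr2 3.81 TPM. Egr3 was 43.23 TPM, just below the 43.57 TPM of animal 17. The library was thus above every other BLA library for 9 of 10 genes, with a median of 1.93 times the mean of the other controls and a range of 1.16 to 3.11 times. It was also above every other library for 34.7% of the 15605 genes with a mean of at least 0.5 TPM. The summed TPM of 7 striatal and central amygdala markers, Penk and Ppp1r1b among them, was 1700 in this library and 267 to 880 in the other BLA libraries, and the part of this tissue in the values was not tested.

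In the DG, where the library of animal 2 lay with the others on the first principal component, it was the highest of the 11 compared libraries for 6 of 10 genes, against 14.6% of 14493 genes with a mean of at least 0.5 TPM. Fos was 9.32 TPM, where the 4 other controls ran from 3.04 to 7.30. Arc was 44.86 TPM against 25.13 to 35.74, Npas4 5.10 against 0.65 to 3.87, and Nr4a1 17.59 against 10.24 to 13.35. Dusp1 was 10.74 TPM against 7.08 to 8.44 and Junb 45.49 against 37.11 to 40.49. The striatal and central amygdala markers summed to 177 TPM in this library, inside the range of 154 to 210 over the DG controls. The pyramidal and amygdala excitatory markers, mostly Slc17a7, summed to 2190 TPM, the top of the control range of 1910 to 2190, and their part in its values was not tested. Its DG values for the 10 genes were a median of 1.42 times the mean of the other controls.

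The DG library of animal 35 was not high for these genes. Arc (23.63 TPM) and Dusp1 (6.56 TPM) were below all 5 compared controls, and Fos (3.45 TPM) and Npas4 (1.66 TPM) were inside their range. Egr3 was 47.36 TPM, where the 5 compared controls ran from 68.42 to 84.76, and Egr2 was 0.89 TPM, above their highest value of 0.76. Among the granule cell markers, Prox1 was 29.9 TPM in this library and 63.0 to 95.5 TPM in the others, and Trpc6 29.4 against 32.1 to 51.6. C1ql2 (352 TPM against 284 to 504) and Calb1 (105 against 80.8 to 127) were inside the range of the others. The whole granule cell list summed to 518 TPM, inside the 494 to 781 TPM of the compared controls. The blood markers summed to 958 TPM where the other libraries ran from 555 to 798. Astrocyte markers summed to 663 TPM against 722 to 1150 in the others, and endothelial and mural markers to 54.0 against 54.3 to 87.5. The sums of the remaining lists lay inside the range of the other libraries. The part of these markers in its values was not tested.

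**Figure D5:**
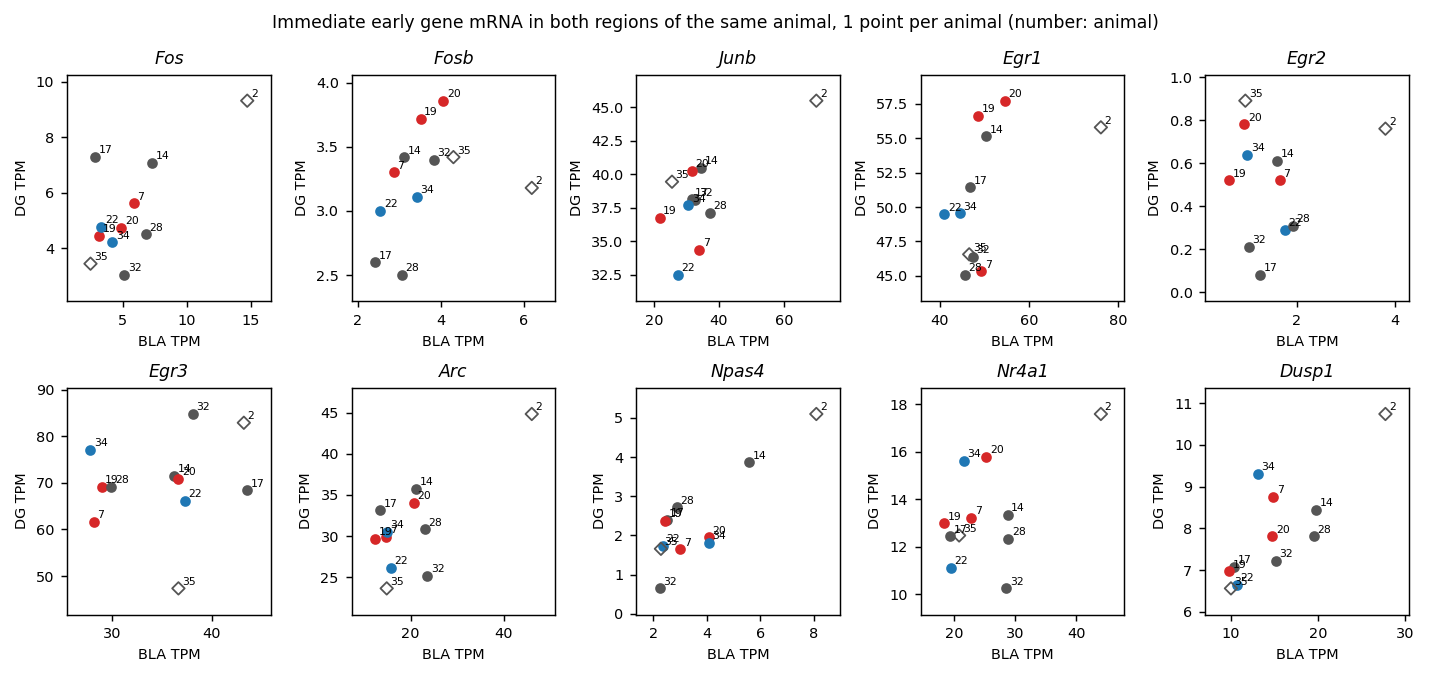
TPM of each gene in the BLA (horizontal) and the DG (vertical) of the same animal, 1 point per animal with its number; gray is control, blue stress-low and red stress-high, and open diamonds are animals 2 and 35, each with 1 library kept apart. The axes do not start at 0. Animal 2 is at the upper right for Fos, Junb, Arc, Npas4, Nr4a1 and Dusp1, and the other animals form no line for most genes.

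Whether an animal with high levels in the BLA also had high levels in the DG was asked in the 9 animals compared in both regions. None of the 10 genes passed after adjustment over the 10 (exact two-sided permutation over all pairings), and the median r was 0.240. Fosb had the highest r, 0.711 (exact permutation p = 0.0325, adjusted p = 0.325, n = 9), with a Spearman rho of 0.767 (exact permutation p = 0.0214, adjusted p = 0.214, n = 9) and an r of 0.430 without the 2 animals farthest from the median. Npas4 had 0.567 (exact permutation p = 0.12, n = 9), Dusp1 0.541 and Egr1 0.510. Fos and Arc had r of -0.007 and 0.005. With animals 2 and 35 included, 2 of 10 genes passed in 11 animals, Dusp1 at 0.790 and Npas4 at 0.767 (permutation, adjusted p = 0.0263 for each), and Fos was at 0.569 and Arc at 0.616.

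The wider immediate early and activity-regulated program was read from 4 further lists. Among 19 tested BLA genes of other rapid transcription factors, 16 were below 0 for stress-exposed over control, with a median log2 fold change of -0.14. Of these, 1 was lower at an unadjusted p under 0.05, Btg2, an antiproliferative early gene, at -0.42 with an SE of 0.19 (edgeR, unadjusted p = 0.0444), and its TPM was 7.27 ± 2.02 in 6 controls and 5.52 ± 1.20 in 6 stress-exposed animals. Among 25 rapid effectors and feedback regulators, 20 were below 0 with a median of -0.12, and 1 was higher at the unadjusted level, the kinase Pim3 at 0.17 with an SE of 0.06 (edgeR, unadjusted p = 0.0128). Of 14 late activity-regulated genes, 10 were below 0 with a median of -0.10, and 2 were lower at the unadjusted level, Mmp9, a matrix protease, at -0.83 with an SE of 0.34 and Inhba, the activin subunit, at -0.75 with an SE of 0.33. Of 24 upstream kinases and transcription factors, 18 were below 0 with a median of -0.04, and 0 were at the unadjusted level. None of these genes passed an adjusted p of 0.05, and the unadjusted counts stand beside 1.77% of all genes lower and 1.27% higher.

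The same lists in the DG were centered near 0 for stress-exposed over control, with medians of -0.05, -0.01, 0.02 and 0.01. At the unadjusted level 2 of 20, 1 of 24 and 0 of 14 were lower and 1 of 24 upstream genes higher, beside 2.12% of all genes lower and 2.3% higher. Klf10 was at -0.23 with an SE of 0.07 (edgeR, unadjusted p = 0.00469, adjusted p = 0.931), Cebpb at -0.25 with an SE of 0.08 (edgeR, unadjusted p = 0.0097), Gadd45b at -0.28 with an SE of 0.11 and Creb1, one of the factors that act on these promoters, at 0.26 with an SE of 0.12. For stress-high over stress-low, 2 of 20 other rapid transcription factors were higher at the unadjusted level, beside 1.73% of all genes. They were Fosl2, an AP-1 subunit like Fosb, with 20.3 ± 0.836 TPM in stress-high and 13.7 ± 2.77 TPM in stress-low animals, a log2 fold change of 0.58 and an SE of 0.20 (edgeR, unadjusted p = 0.0123, adjusted p = 1.0), and Klf4 at 0.81 with an SE of 0.29. In the other lists Dusp14 was higher at 0.30 with an SE of 0.13 and Rps6ka2 at 0.28 with an SE of 0.12. In the BLA that comparison gave 1 gene at the unadjusted level over the 4 lists, the calcium-dependent kinase Camk4 at 0.22 with an SE of 0.09, beside 0.998% of all genes higher.

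Genes whose levels most resembled the mean of the 10, each put on a common scale as z-scores of log2(TPM + 1), were sought among all other genes with a mean of at least 1 TPM. In the BLA the closest of 14411 was Btg2, with an r of 0.939 over 12 libraries, followed by Fras1 at 0.873, Snapc1 at 0.845, Nhlrc3 at 0.825, Hibch at 0.814, Pp2d1 at 0.803, Armc7 and Esyt3 at 0.801, Tk1 at 0.799 and Tbx19 at 0.795. In the DG the closest of 13556 were Schip1 at 0.892, Scrn2 at 0.889, Ush1g at 0.885, Ubap1l at 0.884 and Src at 0.874, over 11 libraries. Flot2 and Fibp followed at 0.870, then Smco4 at 0.864, AI462493 at 0.863 and Mark4 at 0.851. Of these libraries, animal 2 had the highest mean z-score of the 10 genes. The mean z-score itself was 1.51 in DG animal 2 and between -1.17 and 0.67 in the other 10 DG libraries, and in the BLA it ran from -0.97 in stress-high animal 19 to 0.89 in control animal 14.

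The cell type markers did not follow the mean of the genes closely in the BLA, where r between it and the log2 summed markers lay between -0.24 and 0.31 over 10 lists and 12 libraries. In the DG the list of 6 pyramidal and amygdala excitatory markers had an r of 0.70 over 11 libraries, and the other 9 lists lay between -0.36 and 0.07. The sums of that list ran from 1910 to 2190 TPM in controls, 1750 to 2120 in stress-low and 1700 to 2210 in stress-high animals. They were mostly Slc17a7, at a mean of 1810 TPM, with Neurod6 next at 151 TPM, so this r largely reads 1 gene. The part of these markers in the values was not tested.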

How the data were processed

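Per the labels and the study's methods, the authors selected polyadenylated RNA, aligned reads to the rat Rn5 assembly with STAR 2.6.0a and Ensembl annotation and quantified genes with RSEM 1.3.1. The deposited values used here are expected counts and TPM per gene and library, estimated by RSEM for each library separately. Here expected counts were rounded, genes with enough counts (filterByExpr, edgeR 4.0.16, minimum count 10) were normalized by TMM and tested with the quasi-likelihood test over the 3 groups of a region, with Benjamini-Hochberg adjustment over all genes tested. DESeq2 1.42.0 and limma 3.58.1 on log2(TPM + 1), with a mean TPM of at least 0.5, were alternatives. TPM of single genes were compared by exact permutation tests, and correlations used log2(TPM + 1). The edgeR fits and the permutation tests were tested on simulated data.

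The 10 genes and the other lists were chosen with earlier results of these data known. Every gene of the 10 is named with its TPM, and fold changes are printed for those under an unadjusted p of 0.05 and for the smallest p of each comparison. From each of the 4 further lists up to 4 genes are named by smallest p, for stress-exposed over control and stress-high over stress-low. Stress-low and stress-high over control also held genes of these lists at the unadjusted level, which are not named. The 10 genes closest to their mean z-score are named in each region. Replicates are separate animals. The EBSeq comparisons of the study were not used. No library was without a sample label (0 unmapped names). Promoters came from RefSeq tables of GRCr8, another assembly than the reads, so no gene coordinates are given for the expression values. The precision of low genes is limited by their counts, 36 to 144 for Fos in the BLA and 2 to 26 for Egr2 in the DG.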

Additional observations from a re-analysis of the deposited data

Results flagged for a closer look

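The library of BLA animal 2, which no group comparison used, was above every compared BLA control for Fos (14.73 TPM), Fosb (6.19 TPM), Junb (70.02 TPM), Egr1 (76.15 TPM), Egr2 (3.81 TPM), Arc (46.07 TPM), Npas4 (8.1 TPM), Nr4a1 (44.04 TPM) and Dusp1 (27.76 TPM). The DG library of animal 35, also unused, was above the compared DG controls for Egr2 (0.89 TPM). The spread within the control groups was examined in 40 sets, 10 genes in each region with and without the library kept apart, and in 5 of them 1 library lay far from the rest by Dixon's test, where chance gives about 1 in 20 for a single set. These sets are nested, their genes are correlated and the library of animal 2 was set apart for standing far from the rest, so that rate does not apply to the count. With all 7 BLA controls these were Fos, Egr2 and Arc in animal 2, at gaps of 0.608, 0.661 and 0.689 of the range. With the 6 compared BLA controls they were Egr1 in animal 27, at 61.7 TPM with a gap of 0.697 of the range, and Npas4 in animal 14, at 5.58 TPM with a gap of 0.653.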

How the results depend on the processing

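None of the 10 genes was called at an adjusted p under 0.05 in any of 188 refits of the 12 comparisons. The number at an unadjusted p under 0.05 for stress-exposed over control in the BLA was 3, and 1 to 6 under the alternatives. With the title's replicate number as a replicate block it was 6, for stress-low over control 5 (2 without it) and for stress-high over control 3 (1 without it). In the DG the block changed 2 to 0 for stress-low over control. The share over all genes with the block is not given, so these counts have no background. The number gave no sign of pairing animals. After removal of the group means, same-numbered libraries of different groups had a median r of -0.0016 in the BLA (-0.111 to 0.0722). In the DG it was -0.0221 (-0.185 to 0.122). For libraries with different numbers the medians were -0.00754 and 0.044. With the animal as a block between regions, 2 of 10 genes reached an unadjusted p of 0.05 in each of 3 comparisons and 0 passed adjustment. The share over all genes is given above for stress-exposed over control only. Including the libraries kept apart, the BLA median for stress-exposed over control was -0.4 and 24 pairs correlated in place of 6. Of the DG pairs, 5 correlated by Spearman rho and 14 on deviations from the group means, in place of 8. Between regions 2 genes correlated in place of 0, and the exact tests under 0.05, a count added after seeing the data like those at an unadjusted p, were 4 in place of 1. Leaving out 1 library gave 5 to 8 BLA pairs, 0 to 11 DG pairs, 0 genes between regions and 0 to 4 exact tests. The causes of these shifts were not tested. Low counts limit Egr2 in the DG and Fos and Npas4 in both regions.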
